A study of Mus musculus with 4 samples.

Results

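Plvap and 6 genes of the caveolar membrane machinery (Cav1, Cav2, Ptrf, Sdpr, Ehd2 and Dnm2) were followed through 4 whole-retina libraries from mice at postnatal day 10. They were chosen by name, and all 7 were found among the 23278 genes of the deposited table. The WT library has no allele named in its label. The NdpKO library, called the knockout here, lacked Ndp, which encodes Norrin, a secreted ligand. The Ctnnb1flex3/+;Pdgfb-CreER library, called stabilized, carried 1 allele of beta-catenin that Cre recombination turns into a stabilized form, and a 4HT-activated Cre driven by Pdgfb sequence, which is active in endothelial cells. The NdpKO;Ctnnb1flex3/+;Pdgfb-CreER library, called the stabilized knockout, joined these changes. Every animal, WT included, had been given 20 ug of 4HT (an active tamoxifen metabolite) into the peritoneum on postnatal day 3, and the strain was mixed, with at least C57BL6 and 129 contributions. Each genotype was sequenced as 1 library from a pool of 3 RNA extractions, each from 4 to 8 retinas (2 to 4 mice), so no comparison has a replicate, an SD or a test, and none of the differences below was set against the spread between animals.

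Caveolae are small flask-shaped pits of the plasma membrane that carry cargo across endothelial cells. Caveolins insert into the membrane and cavins coat it from the cytoplasm, while EHD2 holds the neck of the pit and dynamin-2 can cut it free. PLVAP forms the diaphragms that span caveolae and fenestrae in leaky endothelium, and mature endothelium with a blood-brain or blood-retina barrier largely lacks it. Norrin, through Frizzled-4 and beta-catenin, is known to promote that barrier in the retina. Caveolin-1 is also known from Muller glia, the main retinal glia, and from mural cells, so whole-retina RNA mixes several sources. In such bulk RNA, fewer cells of a type and less RNA per cell cannot be told apart.

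Levels are FPKM, fragments scaled to transcript length and to the size of the library, with the interval deposited for each value. The sources used here give no level for that interval, which reflects the estimate in 1 pool and leaves out differences between mice. The deposited FPKM summed to between 405525 and 427109 per library. The sources used here give no read totals, so the depth is unknown. The distance from a member's value to its upper bound ranged from 13.6% of the value (Dnm2, stabilized) to 37.3% (Sdpr, WT). Ndp itself measured 2.98 FPKM in WT and 2.35 FPKM with stabilization alone, while the pools labelled NdpKO measured 0.873 and 0.869 FPKM, and their intervals lay below that of WT. Xist, the RNA of the inactive X, measured 130 to 135 FPKM in the pools with intact Ndp and 1.25 to 1.28 FPKM in those without. The Y-linked Ddx3y measured 18.7 to 20.1 FPKM without Ndp and 0.0896 to 0.173 FPKM with it. Sex and Ndp genotype therefore cannot be told apart in any comparison of Ndp loss. The labels name Pdgfb-CreER only for the libraries that carry the stabilizing allele. Stabilization here thus means that allele and the Cre driver together, and their parts in a difference cannot be told apart.

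A ratio is the difference of log2(FPKM + 0.5) between 2 libraries, which understates the change of low genes. A gene was counted as higher or lower when that ratio was past 1.5-fold. Counting was limited to the 13150 genes that averaged 1 FPKM or more across the libraries and had an OK status in each. Where 4 values are listed without names, they stand in the order WT, knockout, stabilized, stabilized knockout. Of the 7 members 6 met it. Sdpr, at a mean of 0.561 FPKM, did not and is described by its values. Ptrf was below 1 FPKM in WT and passed through the libraries where it was higher.

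Plvap (chromosome 8, 71497765 to 71511752, minus strand, mm10, 6 exons in its longest principal transcript) was highest in the knockout. WT had 1.72 FPKM, with a deposited interval of 1.20 to 2.24, and the level was 4.40 FPKM in the knockout (3.30 to 5.50). With stabilization it was 1.33 FPKM with Ndp intact (0.894 to 1.77) and 2.22 FPKM without (1.58 to 2.87). The interval of the knockout lay above those of the other 3 libraries, which overlapped each other. In order from the highest, knockout, stabilized knockout, WT and stabilized, only the first step exceeded the intervals.

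**Figure D1:**
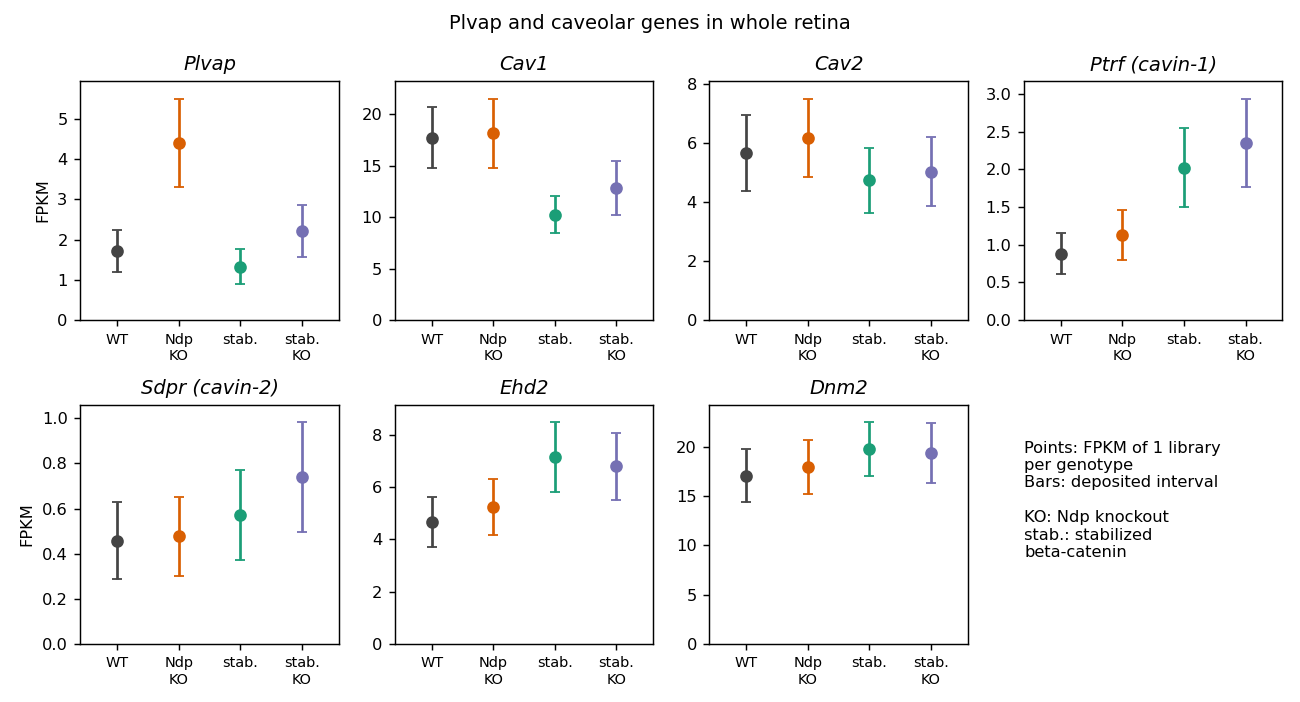
FPKM of the 7 genes (vertical axis, from 0) in the 4 libraries (horizontal axis), 1 library per genotype, with bars for the deposited interval. Plvap stands out in the knockout at 4.40 FPKM, Cav1 is lowest in the stabilized library at 10.2 FPKM, and Ptrf is at 2.02 and 2.35 FPKM in the libraries with stabilized beta-catenin against 0.879 and 1.13 FPKM without it.

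Knockout against WT asks how the retina differs when Norrin is lost with beta-catenin unmodified. Plvap was 2.56 times as high in the knockout by the deposited values, and the bounds of both intervals allow a factor between 1.47 and 4.59. Its log2 ratio of 1.14 ranked at position 56 from the top of 13150 genes. Plvap was the 1 member of 6 past 1.5-fold higher, where 0.966% of all tested genes were, and 0.433% of tested genes were higher with intervals apart. No member was 1.5-fold lower, where 1.22% of tested genes were. The other members had overlapping intervals and ratios from 0.03 (Cav1) through 0.07 (Dnm2), 0.12 (Cav2) and 0.15 (Ehd2) to 0.24 (Ptrf), and Sdpr was at 0.03. The median of the 6 counted members was 0.14, beside -0.02 over all tested genes.

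Stabilized knockout against stabilized gives the same loss of Ndp on a background of stabilized beta-catenin, from a pair of libraries not used above. Plvap was again the member with the highest ratio, at 2.22 FPKM against 1.33 FPKM, 1.67 times as high by the deposited values. Its intervals overlapped, and the bounds allow a factor from 0.894 to 3.21. The log2 ratio of 0.57 fell just short of 1.5-fold and was past it with a pseudocount of 0.1 (0.70) or after the libraries were rescaled to the same total (0.59). No member was 1.5-fold higher or lower, where 0.981% and 0.692% of tested genes were, and 0.266% of tested genes were 1.5-fold higher with Ndp loss on both backgrounds. The remaining members lay between -0.07 (Ehd2) and 0.31 (Cav1).

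Stabilized knockout against knockout asks how the retina differs with stabilization, as defined above, in the absence of Norrin. Plvap was at 2.22 FPKM against 4.40 FPKM, 0.505 times the knockout level, and the bounds of the intervals allow 0.287 to 0.869. Its log2 ratio of -0.85 ranked at position 76 from the bottom of 13150 genes. This comparison shares the knockout library with the first one, so a chance high value there would appear in both. With Ndp intact, Plvap was at 1.33 FPKM in the stabilized library against 1.72 FPKM in WT, a log2 ratio of -0.28 with overlapping intervals. The effect of stabilization on Plvap was thus lower by 0.57 on the log2 scale without Ndp than with it, a difference that has no replicate and was not tested. Against WT, Plvap in the stabilized knockout was 1.29 times as high with overlapping intervals (0.704 to 2.39 by the bounds).

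Plvap and the general endothelial markers differed between libraries in unlike ways. Of 16 pan-endothelial genes, 12 met the minimum, and Tek, Erg, Robo4 and Clec14a did not. Tie1 and Icam2 were below 1 FPKM in WT and the knockout and met it through the libraries with stabilization, so the counts that follow take all 16 with no minimum. In the knockout none of the 16 was 1.5-fold higher or lower and their median was 0.01. Their ratios among the 12 ran from -0.41 (Egfl7) to 0.57 (Cdh5, VE-cadherin). Cdh5 fell just short of 1.5-fold on the scale with the pseudocount, but measured 1.36 FPKM in the knockout (0.999 to 1.72) against 0.754 FPKM in WT (0.529 to 0.980), with intervals apart. In the stabilized knockout against the knockout, 12 of the 16 were 1.5-fold higher, where 1.76% of tested genes were, and 0 were lower (median 0.85), beside -0.85 for Plvap. In the stabilized library against WT, 8 of 16 were 1.5-fold higher, where 1.67% of tested genes were, and 0 were lower (median 0.59), beside -0.28 for Plvap. Emcn (endomucin, a surface sialomucin of veins and capillaries) was lower there than Plvap, at -0.36.

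**Figure D2:**
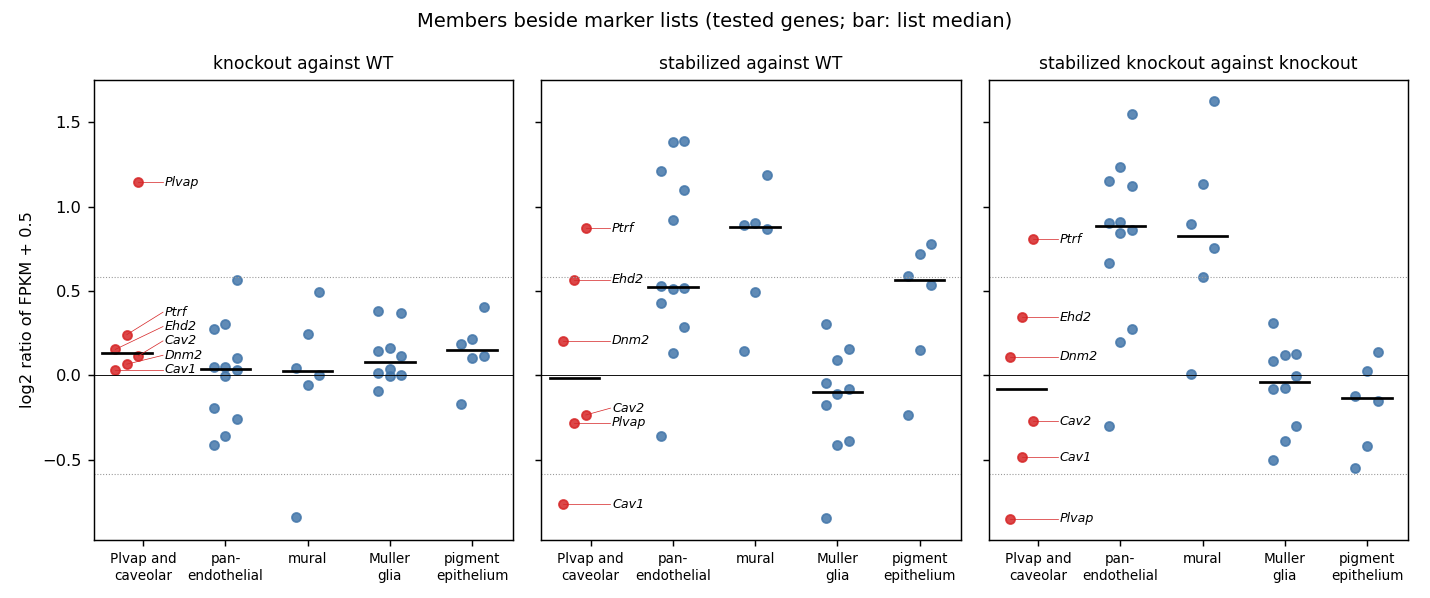
Log2 ratios of FPKM + 0.5 (vertical axis) of single tested genes (points) with the median of each list (bars), in 3 comparisons. Plvap lies above every plotted pan-endothelial gene in the knockout (1.14), while Plvap (-0.85) and Cav1 (-0.48) lie below every one of them in the stabilized knockout against the knockout. Dotted lines mark 1.5-fold.

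Because the members are given per length, their levels could be set against each other within a library, which removes any scaling between libraries. Claudin-5 (Cldn5), the main tight junction claudin of barrier endothelium, measured 6.91, 0.675, 19.4 and 16.7 FPKM. The FPKM ratio of Plvap to Cldn5 was 0.249 in WT (0.139 to 0.432 by the bounds) and 6.53 in the knockout (3.40 to 14.6). It was 0.0685 in the stabilized library (0.0388 to 0.112) and 0.133 in the stabilized knockout (0.0791 to 0.212). Plvap RNA thus exceeded Cldn5 RNA in the knockout alone of the 4 libraries, and the ratio in the stabilized library lay below that of WT with ranges apart. Mfsd2a, a lysophospholipid transporter known to restrain caveolar transcytosis in brain endothelium, measured 1.20, 0.545, 3.80 and 4.86 FPKM. The ratio of Plvap to Mfsd2a was 1.43, 8.07, 0.350 and 0.457. Against Pecam1, an endothelial adhesion molecule at 1.93, 2.02, 4.12 and 4.08 FPKM, the ratio of Plvap was 0.888, 2.18, 0.323 and 0.545. Against Cdh5 it was 2.28, 3.24, 0.477 and 0.746, and against Emcn 1.02, 2.38, 1.10 and 1.58. The knockout had the highest ratio against each of these 3 genes, but its range by the bounds overlapped that of WT each time. The knockout and WT ranges were 1.239 to 4.01 and 0.469 to 1.705 for Pecam1. They were 1.92 to 5.51 and 1.22 to 4.24 for Cdh5, and 1.36 to 4.35 and 0.536 to 1.96 for Emcn. The ranges of the libraries with stabilization lay below that of the knockout against Pecam1 and Cdh5 and overlapped it against Emcn. By the ratio itself, the stabilized knockout was lower than WT against Pecam1 and Cdh5 and higher against Emcn. That order thus depends on the endothelial gene used. The ranges of the stabilized knockout and WT overlapped against Pecam1 and Emcn. Against Cdh5 they were barely apart (0.437 to 1.22 and 1.223 to 4.24).

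**Figure D3:**
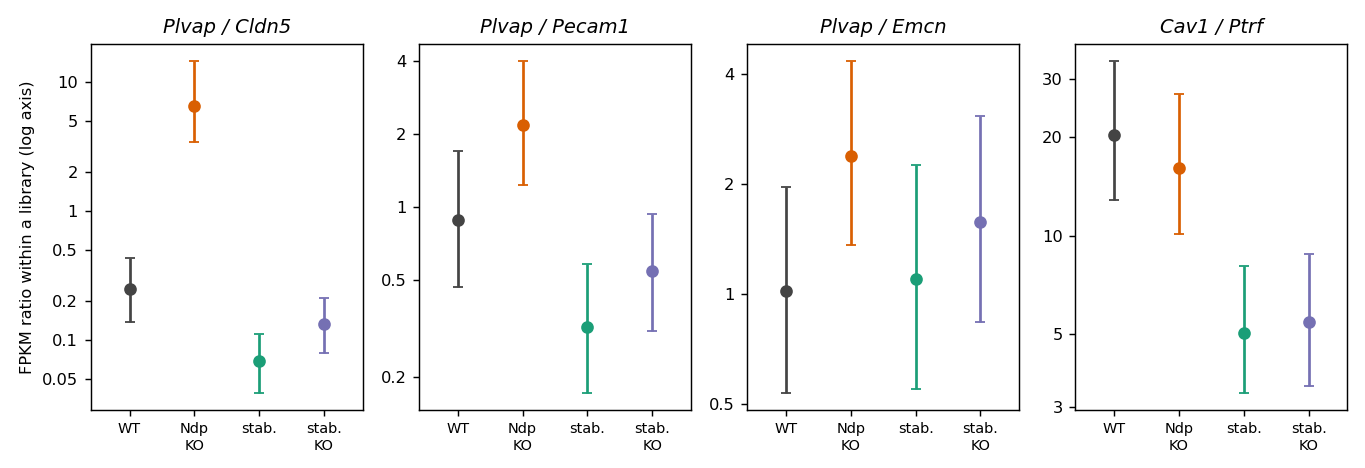
FPKM ratios of gene pairs within each library (vertical log axes) with bars for the range allowed by both deposited intervals. The ratio of Plvap to Cldn5 is 6.53 in the knockout and at most 0.249 in the other libraries, the ratio of Cav1 to Ptrf is 20.2 and 16.1 without stabilization and 5.07 and 5.47 with it. The ratios of Plvap to Pecam1 and to Emcn are highest in the knockout (2.18 and 2.38), with bars that overlap those of WT. They order the other libraries differently, but the bars of those libraries overlap.

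Among the caveolins, Cav1 was lower in the libraries with stabilized beta-catenin and alike in WT and the knockout. Cav1 (chromosome 6, 17306335 to 17341452, plus strand, 3 exons) encodes the structural protein on which caveolae of non-muscle cells depend. Its level was 17.7 FPKM in WT (14.8 to 20.7) and 18.2 FPKM in the knockout (14.8 to 21.5). With stabilization it was 10.2 FPKM with Ndp intact (8.45 to 12.0) and 12.9 FPKM without (10.2 to 15.5). The interval of the stabilized library lay below those of WT and the knockout, and that of the stabilized knockout overlapped all others. Stabilization with Ndp intact gave 0.578 times the WT level (0.409 to 0.816 by the bounds) and a log2 ratio of -0.76. Cav1 was the 1 member of 6 past 1.5-fold lower in that comparison, where 1.71% of tested genes were, and 1.57% were lower with intervals apart. Stabilization without Ndp, in the other pair of libraries, gave 0.708 times the knockout level (0.476 to 1.04), a log2 ratio of -0.48 that did not reach 1.5-fold.

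Cav2 (chromosome 6, 17281185 to 17289115, plus strand, 3 exons) lies beside Cav1 and encodes its usual partner. Its levels were 5.64, 6.16, 4.72 and 5.01 FPKM. All 4 intervals overlapped (3.62 to 7.49 from end to end), so the order of these levels did not exceed them. Its ratios under stabilization, -0.23 with Ndp and -0.27 without, had the sign of those of Cav1 and neither was past 1.5-fold. The FPKM of Cav1 was 3.14, 2.95, 2.17 and 2.56 times that of Cav2, with overlapping ranges.

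Promoter sequence is shown for Cav1 and Ptrf, the members with the most negative and the most positive ratio in the stabilized library, and for Dnm2, where a search found a match. The windows are the 250 bases before the RefSeq transcription start, on GRCm38.p6, 5′ to 3′ on the strand of the gene. RefSeq entries matched 6 of the 7 members, under the names Cavin1 and Cavin2 for Ptrf and Sdpr, with 8 windows in all, and not Plvap.
Cav1, chr6:17306085-17306334, plus strand: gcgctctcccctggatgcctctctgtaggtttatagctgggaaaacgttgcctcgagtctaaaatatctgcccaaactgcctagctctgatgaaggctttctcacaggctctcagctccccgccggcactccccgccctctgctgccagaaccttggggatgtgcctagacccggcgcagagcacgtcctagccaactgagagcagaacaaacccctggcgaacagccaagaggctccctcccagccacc
Ptrf, chr11:100970618-100970867, minus strand: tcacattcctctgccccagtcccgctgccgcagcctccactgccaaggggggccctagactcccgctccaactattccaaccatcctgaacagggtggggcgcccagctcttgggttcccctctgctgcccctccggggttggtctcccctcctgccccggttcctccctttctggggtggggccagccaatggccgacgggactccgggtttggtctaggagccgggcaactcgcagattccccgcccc
Dnm2, chr9:21424658-21424907, plus strand: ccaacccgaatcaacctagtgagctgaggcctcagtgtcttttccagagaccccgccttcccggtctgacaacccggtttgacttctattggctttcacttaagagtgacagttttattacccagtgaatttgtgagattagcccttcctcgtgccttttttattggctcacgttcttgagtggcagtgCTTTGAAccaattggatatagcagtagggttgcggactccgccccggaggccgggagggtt
Capitals mark a match to the words CTTTGAT or CTTTGAA, or their reverse complements ATCAAAG and TTCAAAG, which are forms of the site of TCF/LEF factors, the DNA-binding partners of beta-catenin. The word CTTTGAA begins 61 bases before the start of Dnm2, and no window of Cav1, Cav2, Ptrf, Sdpr or Ehd2 held either word. Of all 32851 RefSeq windows of this length, 7.48% held one. The Cav1 and Ptrf windows had 59.6% and 67.6% G and C, and the Dnm2 window 51.2%, beside a median of 52.4% over all windows.

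The cavin genes Ptrf and Sdpr had ratios of the opposite sign to those of the caveolins under stabilization. Ptrf (chromosome 11, 100956733 to 100970887, minus strand, 2 exons) encodes cavin-1, the coat protein without which caveolin-1 forms no caveolae. Its level was 0.879 FPKM in WT (0.607 to 1.15) and 1.13 FPKM in the knockout (0.796 to 1.46). With stabilization it was 2.02 FPKM with Ndp intact (1.496 to 2.55) and 2.35 FPKM without (1.76 to 2.94). The intervals of the libraries with stabilized beta-catenin lay above those of the libraries without it. Stabilization gave 2.30 times the level with Ndp intact (1.30 to 4.20 by the bounds) and 2.08 times without Ndp (1.20 to 3.69), log2 ratios of 0.87 and 0.81 from separate pairs of libraries. Ptrf was the 1 member of 6 past 1.5-fold higher in each pair, where 1.67% and 1.76% of tested genes were, and 0.73% of tested genes were 1.5-fold higher in both (0.304% were lower in both). Genes higher with intervals apart made up 1.76% and 1.26% of those tested. In the stabilized knockout against WT it was the 1 member past 1.5-fold higher (ratio 1.05), where 1.79% of tested genes were, and no member was 1.5-fold lower, where 1.07% were. In the stabilized knockout against the knockout Plvap was the 1 member past 1.5-fold lower, where 0.92% were and 0.487% were lower with intervals apart. At 2-fold, Plvap in the knockout (where 0.449% of tested genes were higher) and Ptrf in the stabilized knockout against WT (0.745%, and 2.02% with intervals apart) were the members past the threshold. Under stabilization no member reached 2-fold on the log2(FPKM + 0.5) scale. The deposited values of Ptrf were past 2-fold, as given above, and with a pseudocount of 0.1 its ratios were 1.12 with Ndp and 0.99 without. Past 2-fold on the scale with 0.5 were, under stabilization, 0.7% of tested genes higher and 0.722% lower with Ndp, and 0.791% and 0.464% without.

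Sdpr (chromosome 1, 51289126 to 51302960, plus strand, 2 exons) encodes cavin-2, which helps to shape endothelial caveolae. Its locus in the deposited table is shared with 9330175M20Rik, which was at most 0.0466 FPKM. Sdpr measured 0.457, 0.478, 0.572 and 0.738 FPKM, with overlapping intervals. Its ratios under stabilization were 0.16 with Ndp and 0.34 without, which the pseudocount understates at this level. Cavin-3 (Prkcdbp) measured 5.95, 5.48, 6.50 and 6.68 FPKM, and cavin-4 (Murc), a muscle form, 0.303 to 0.444 FPKM.

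Of the genes acting at the neck of the pit, Ehd2 (chromosome 7, 15946958 to 15967567, minus strand, 6 exons) was higher with stabilization. Its level was 4.66 FPKM in WT (3.69 to 5.63) and 5.24 FPKM in the knockout (4.18 to 6.30). With stabilization it was 7.15 FPKM with Ndp intact (5.82 to 8.48) and 6.79 FPKM without (5.53 to 8.06). The stabilized library lay above WT with intervals apart, and the other neighbours in this order overlapped. The ratio was 0.57 with Ndp intact, just short of 1.5-fold although the deposited values differed by a factor of 1.53, and 0.34 without Ndp. With a pseudocount of 0.1, after re-centring on the median of all genes, or after rescaling to the same total, Ehd2 was past 1.5-fold in the stabilized library (0.61, 0.59 and 0.66). Dnm2 (chromosome 9, 21424908 to 21507759, plus strand, 21 exons in its longest principal transcript), which encodes the membrane-cutting GTPase dynamin-2 and is expressed in most cells, measured 17.1, 18.0, 19.8 and 19.4 FPKM. All its intervals overlapped and no ratio was beyond 0.21. It shares its locus in the table with Tmed1, at 17.2 to 19.2 FPKM, and with Mir199a-1, which ranged from 0 to 435 FPKM as short RNA genes do in this table, so its separate value is uncertain.

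**Figure D4:**
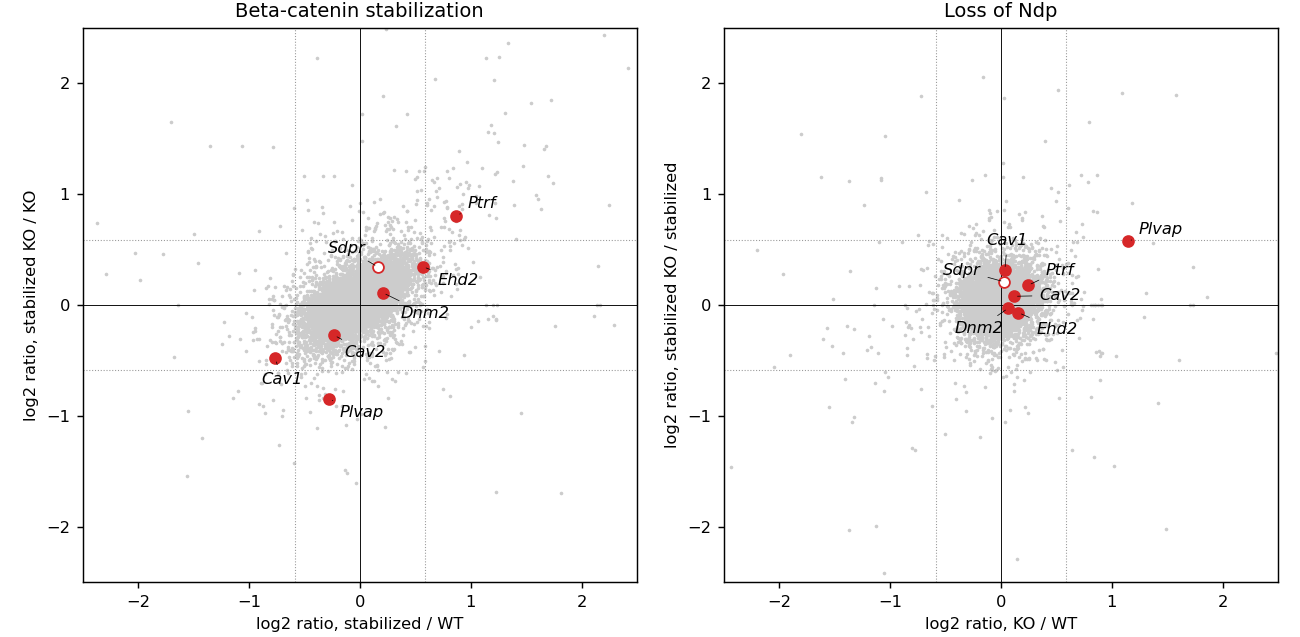
Log2 ratios of FPKM + 0.5 for each factor on both backgrounds, with all tested genes in grey, the 6 counted members in red and Sdpr as an open circle. Left, stabilization with Ndp (horizontal) and without (vertical), and right, Ndp loss with unmodified (horizontal) and stabilized (vertical) beta-catenin. The axes of a panel use separate pairs of libraries. Ptrf lies past 1.5-fold (dotted lines) on both axes at left (0.87 and 0.81), Cav1 and Cav2 are below 0 on both, and Plvap lies apart from the other members at right (1.14 and 0.57). Of 13150 genes, 147 at left and 151 at right lie outside the axes.

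The proportion of the partners Cav1 and Ptrf in the tissue RNA differed between libraries with and without stabilization. The FPKM ratio of Cav1 to Ptrf was 20.2 in WT (12.8 to 34.1 by the bounds) and 16.1 in the knockout (10.1 to 27.0). It was 5.07 in the stabilized library (3.31 to 8.05) and 5.47 in the stabilized knockout (3.49 to 8.78). The ranges of the libraries with and without stabilization did not overlap. In the stabilized library against WT, the median over the 6 counted members was -0.01, beside -0.02 over all tested genes, with 1 member past 1.5-fold in each direction. Under stabilization without Ndp the median was -0.08, beside 0.03, again with 1 in each direction.

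Markers of several cell types differed along with stabilization. Summed over 16 pan-endothelial genes, FPKM was 66.1, 65.0, 92.8 and 95.7, so the pair of libraries with stabilization was the higher one, as for Ptrf, while it was the lower one for Cav1. Kdr was the largest part of each sum, at 39.0, 39.9, 47.7 and 45.7 FPKM. Summed over 10 mural cell genes FPKM was 23.7, 16.0, 37.6 and 35.6. Rgs5 made up most of that sum, at 17.6, 9.63, 25.0 and 21.7 FPKM. In the knockout Rgs5 was the 1 of 10 that was 1.5-fold lower, where 1.22% of tested genes were. None was 1.5-fold higher there, where 0.966% were, and the median of the 10 was 0.01. With no minimum, 7 of the 10 were 1.5-fold higher under stabilization on each background (beside 1.67% and 1.76% of tested genes). Acta2, an actin of smooth muscle, measured 0.392, 0.756, 1.53 and 3.38 FPKM. Over 10 Muller glia genes the sum was 919, 991, 889 and 972 FPKM. In the stabilized library against WT, 1 of 10, the water channel gene Aqp4, was 1.5-fold lower (-0.85) and none was 1.5-fold higher. Of all tested genes, 1.71% were lower there and 1.67% higher. Aqp4 was at 3.88, 4.39, 1.94 and 2.97 FPKM. The other 9 had ratios in the stabilized library from -0.41 (Kcnj10) to 0.31 (Vim), so Cav1 at -0.76 lay between them and Aqp4. The FPKM ratio of Cav1 to Aqp4 was 4.57, 4.13, 5.3 and 4.33, with overlapping ranges. Over 7 fibroblast genes the sum was 15.2, 17.9, 21.8 and 30.9 FPKM, with Lum listed at 0 in all but the stabilized library. Pdgfra and Mgp made up most of that sum in each library. Dcn, Lum and Col1a1 were at most 0.0683, 0.0197 and 0.261 FPKM, so the sum says little about them. With no minimum, 2 of the 7 were 1.5-fold higher under stabilization with Ndp and 3 without Ndp, and 0 were lower. Of all tested genes, 1.67% and 1.76% were higher in these comparisons, and 1.71% and 0.92% lower. Over 6 erythroid genes, in which near-identical globin copies are uncertain, the sum was 69.8, 75.6, 164 and 176 FPKM. The part of these cell types in the values of Cav1, Ptrf and Ehd2 was not tested. The choroid, which adjoins the pigment epithelium, has fenestrated vessels. Pigment epithelium genes, a sign of adjoining tissue in the dissection, summed to 54.5, 60.6, 68.4 and 49.5 FPKM over 9 genes. Ttr was the largest part of each sum, at 30.1, 34.3, 33.5 and 23.4 FPKM. The sum was higher in the knockout than in WT, with a median ratio of 0.15 over the 6 genes that met the minimum, and highest in the stabilized library. In that library against WT, 3 of the 6 were 1.5-fold higher with intervals apart and 0 were lower (median 0.56). Of all tested genes, 1.67% were 1.5-fold higher there and 1.71% lower. The part of adjoining tissue in the values of Plvap was not tested.

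Most of the wider set of caveolar and related membrane genes lay within 1.5-fold, as most tested genes did. Over the 5 comparisons, 0.966% to 1.79% of tested genes were 1.5-fold higher and 0.692% to 1.71% lower. Of 15 accessory genes (further caveolin, cavin, pacsin, EHD, dynamin and flotillin genes, with Nos3 and Src), 13 met the minimum and Cav3 and Murc did not. Their values come from whole-retina RNA, and the part of endothelial cells in them was not tested. In the knockout none of the 13 was 1.5-fold higher or lower (median 0.14, beside medians over all tested genes from -0.02 to 0.04 in the 5 comparisons). The same counts of 0 held with stabilization alone (median 0.12) and for the stabilized knockout against the knockout (0.05) and against the stabilized library (0.04). In the stabilized knockout against WT 1 of 13 was higher and none lower, where 1.79% and 1.07% of tested genes were (median 0.17, beside 0.01 over all tested genes). That gene was Nos3, the endothelial nitric oxide synthase, which caveolin-1 binds. It measured 1.27 FPKM in WT (0.914 to 1.63), then 1.86, 2.12 and, in the stabilized knockout, 2.19 FPKM (1.66 to 2.72). Every library with an altered genotype lay above WT, and the interval of the stabilized knockout alone was apart from it.

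The genes of the alternative route, clathrin, its adaptor AP-2 and cargo receptors, also lay mostly within 1.5-fold, as most tested genes did. All 14 met the minimum, and none was 1.5-fold apart in the knockout (median 0.10) or in the stabilized knockout against the knockout (0.07) or against the stabilized library (0.02). Against WT, with stabilization alone (median 0.08) or with Ndp loss as well (0.14), 1 of 14 was 1.5-fold higher and none lower. Over all tested genes, 1.67% and 1.79% were higher in these comparisons, and 1.71% and 1.07% lower. In each case the 1 of 14 was Fcgrt, the neonatal Fc receptor that carries IgG and albumin across cells. Fcgrt measured 0.663 FPKM in WT (0.407 to 0.919), 1.12 FPKM in the knockout and, with stabilization, 1.42 FPKM with Ndp intact (0.959 to 1.88) and 1.56 FPKM without (1.07 to 2.05). WT was the lowest library, with intervals apart from those of the stabilized and stabilized knockout libraries. Like Ptrf, Fcgrt was below 1 FPKM in WT and met the minimum through the libraries where it was higher. The transferrin receptor gene Tfrc, the lowest of the list in the knockout, was at 30.3 FPKM there against 35.2 FPKM in WT (ratio -0.21).

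The genes nearest in pattern to Plvap and Cav1 were sought by the Euclidean distance between log2(FPKM + 0.5) values centred on their mean over the 4 libraries, among 11731 tested genes without short RNA genes and provisional symbols. With 4 libraries such likeness is a description. For Plvap they were Aqp1 (distance 0.38), Slc24a1 (0.42), Cds1 (0.48), Mns1 (0.48) and Maob (0.49). Aqp1, a water channel gene, measured 2.56, 4.29, 1.84 and 2.97 FPKM. Plvap itself spanned 1.42 on the log2 scale, a range exceeded by 1.92% of tested genes. For Cav1, which spanned 0.80 (exceeded by 3.65%), the nearest were Kcne2 (0.07), Hsbp1l1 (0.09), Qrfpr (0.09), Metrn (0.11) and Ak4 (0.12). Kcne2, a potassium channel subunit gene, measured 18.1, 18.0, 10.9 and 13.4 FPKM. None of these 10 genes is in the pan-endothelial list.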

How the data were processed

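RNA of whole retinas was measured in 4 libraries, 1 per genotype. The deposited table gives FPKM, which the authors computed with TopHat and Cuffdiff on mm10, tools and build named per the submitters' processing notes, with an interval and a text status per value. The sources used here give no versions, annotation, strandedness or filters. FPKM are relative within a library.

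Columns were assigned by the number in the sample description. Log2 ratios used FPKM + 0.5, with genes at a mean of at least 1 FPKM and status OK in every library. A total of 13150 of 23278 genes passed, and 145 had another status in a library. With 1 library per group no test was run. The procedure was tested on simulated data. Coordinates are from GENCODE M21 (mm10) and promoters from RefSeq (GRCm38.p6). Python 3.11.15, numpy 2.4.6, pandas 2.3.3 and matplotlib 3.10.9 were used.

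The members and lists were chosen with earlier results of these data known. Named genes were the members, Ndp, Cldn5, Mfsd2a, accessory genes past 1.5-fold with intervals apart, the extremes of marker lists, and the 5 genes nearest to Plvap and to Cav1. Pecam1, Tfrc, Xist, Ddx3y, Prkcdbp, Murc, Kcnj10, Dcn, Lum, Col1a1 and the genes nearest to Ptrf are outside that rule. They were chosen once their values had been seen. Also outside it are genes named for sharing a member's locus, for their part in a sum, or for missing the minimum. A gene of the erythroid list is not reported here. Alternative pseudocounts, minimum means, scalings, statuses and call rules were tried.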

Additional observations from a re-analysis of the deposited data

How the results depend on the processing

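No paired analysis was possible because each genotype is 1 library, and for the same reason no replicate could be left out. Over 240 recomputed member ratios, none of those past 1.5-fold changed sign and none moved by more than the deposited intervals allow. Many of these could not move, since a changed minimum mean or status rule selects genes and leaves a ratio as it is. Only the pseudocounts, the re-centring and the rescaling could alter one. Of 100 recomputed counts, 85 were within 1.5 times the count given. With a minimum mean of 5 FPKM, which leaves out Plvap and Ptrf, the members higher numbered 0 in the knockout, 0 with stabilization alone, and 0 in the stabilized knockout against the knockout and against WT, and those lower in the stabilized knockout against the knockout also numbered 0. With 2-fold as the rule, those higher and lower in the stabilized library numbered 0 and 0, and those higher and lower in the stabilized knockout against the knockout 0 and 0. The members higher in the stabilized library numbered 2, Ptrf and Ehd2, with a pseudocount of 0.1, after re-centring on the median, after rescaling to the same total, and by intervals apart. Plvap made 1 member higher in the stabilized knockout against the stabilized library with a pseudocount of 0.1 and after rescaling. Re-centring moved member ratios by at most 0.04. Rescaling to the same total, which also lowers the weight of the pseudocount, moved them by at most 0.22 (Ptrf in the stabilized library, from 0.87 to 1.09, past 2-fold), and a pseudocount of 0.1 by at most 0.28 (Ptrf in the stabilized knockout against WT). The depth is unknown, so precision is known only from the deposited intervals.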

Other observations

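The genes nearest in pattern to Ptrf, looked up after its values were seen, were Notch3 (distance 0.04), Col18a1 (0.08), Tubb6 (0.11), Lamb1 (0.13) and Lamc1 (0.14). Notch3 encodes the Notch receptor of mural cells, Col18a1 a collagen of vascular basement membranes, and Lamb1 and Lamc1 laminin chains. In the order WT, knockout, stabilized, stabilized knockout, Notch3 measured 0.759, 0.994, 1.79 and 2.02 FPKM and Lamc1 3.68, 4.35, 6.97 and 7.14 FPKM. As for Ptrf, the libraries with stabilized beta-catenin were the higher pair for both genes. The likeness covers 4 libraries and is a description.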
